A study of Mus musculus with 15 samples.

Results

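Integrins, cadherins and claudins are transmembrane proteins through which a cell holds the matrix, holds its neighbours and closes the space between epithelial cells. The genes described here, called members below, were the protein-coding mouse genes whose symbol starts with Itga or Itgb, or is Cdh or Cldn followed only by a number, with 10 or more counts in 3 or more samples. Itgb3 was left out by the rule, as were Itgb1bp1, Itgb1bp2, Itgb3bp and Itgbl1, which do not encode integrin chains. Of the 55536 genes counted, 72 met the name rule and 47 also met the count rule: 21 integrins, 15 cadherins and 11 claudins. All 47 were among the 18090 genes tested. Of the 25 genes that missed the count rule, Itgb2l, Itgax, Cldn17 and Cldn24 had no counts in any sample, and Cldn23 had the most, 83 over the 15 samples. Cdh13 and Itga11 were the members with the fewest, 71 counts each.

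The samples were mouse embryonic stem cells (ESCs), epiblast-like cells (EpiLCs) and primordial germ cell-like cells on days 2, 4 and 6 of induction (D2PGCLCs, D4PGCLCs and D6PGCLCs), with 3 samples in each of the 5 groups. The cells came from ESCs carrying doxycycline-inducible Prdm1, Prdm14, Tfap2c and Nanog and a Stella-eGFP reporter. ESCs grew in 2i with LIF on poly-L-ornithine and laminin, and EpiLCs for 48 h on fibronectin with Activin A, bFGF and KSR. PGCLCs formed in floating aggregates in GK15 medium with doxycycline and were sorted as Stella-eGFP+ cells. Group, medium, substrate and sorting changed together, so their parts in any difference between ESCs, EpiLCs and PGCLCs cannot be told apart. The cells were a culture model, the RNA came from pooled cells, and fewer cells with a transcript cannot be told apart from less RNA per cell.

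Identity genes are given as an example from each list, with genes that departed from it. Klf4, a factor of naive pluripotency, had 4682, 4030 and 5088 counts in ESCs and 367, 540 and 457 in EpiLCs, while Esrrb of the same list had from 13292 to 17920 in ESCs and from 14128 to 21196 in PGCLCs. Fgf5, a signal made by the primed epiblast, had 1, 0 and 0 counts in ESCs, 1409, 1974 and 1546 in EpiLCs and from 9 to 39 in the 9 PGCLC samples. Dppa3, which encodes Stella and whose reporter the PGCLCs were sorted by, had from 13406 to 21440 counts in the PGCLC samples and from 1270 to 2634 in the other 6. Prdm1, of the same list, had means of 71.6 CPM in EpiLCs and 59.6 CPM in D6PGCLCs, with overlap. D6PGCLC replicate 1 stood apart by genes detected, 18061 against 21103 to 24343 in the 14 other samples, although its total of 34476646 counts lay within the range of 22555021 to 42725681. The results that turn on that sample are given without it. In it 6 members had no counts, against 1 and 2 in D6PGCLC replicates 2 and 3. The EpiLC, D2PGCLC and D4PGCLC samples had from 0 to 4 such members, and ESC replicates 1, 2 and 3 had 10, 8 and 7. By this number too it stood apart from its own group.

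Markers of other cells were not absent. The summed level of 4 neural genes, most of it Tubb3, was 27.8 to 121 CPM over the 15 samples. Neurod1, a factor of neurons, had 2, 4 and 9 counts in ESCs, 262, 254 and 207 in EpiLCs and from 5 to 33 in PGCLCs. Pax6, a factor of neural progenitors, had 33, 32 and 35 in ESCs, 109, 76 and 64 in EpiLCs and from 81 to 331 in PGCLCs. Sox1 had 39, 31 and 79 counts in ESCs and 41, 16 and 30 in EpiLCs, which overlapped, and Tubb3 had a mean of 81.8 CPM in ESCs and 66.3 CPM in EpiLCs. The summed level of 7 fibroblast genes was 24.0 to 25.1 CPM in EpiLCs, 7.72 to 8.41 CPM in ESCs and 0.919 to 2.19 CPM in PGCLCs. Thy1 was the largest part of it in EpiLCs and ESCs, with means of 12.8 and 5.80 CPM. Dcn, a proteoglycan gene of fibroblasts, had 180, 173 and 134 counts in EpiLCs and 0, 0 and 0 in ESCs, whereas Lum had 0, 0 and 0 counts in EpiLCs. Gata6, a factor of primitive endoderm, had 536, 257 and 282 counts in D6PGCLCs and from 53 to 70 in D4PGCLCs, while Foxa2 had 0, 1 and 2 in D6PGCLCs. Hand1, a factor of extraembryonic mesoderm, had 510, 719 and 352 counts in D6PGCLCs and from 97 to 140 in D4PGCLCs. T, a factor of the primitive streak, had 405, 346 and 434 counts in ESCs and from 0 to 5 in PGCLCs. The part of such cells in the results was not tested.

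Integrins are pairs of an alpha and a beta chain, and the alpha chain largely sets which matrix protein is bound. Classical cadherins bind the same cadherin on the next cell and reach actin through catenins, and claudins form the strands of tight junctions. E-cadherin is present in naive and primed pluripotent cells and in germ cells of the embryo.

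Most member calls came at the 2 steps that changed culture, ESCs to EpiLCs and EpiLCs to D2PGCLCs, and few came between PGCLC days, as for all genes tested. Levels below are CPM after TMM scaling, and 5 means given in a list are those of ESCs, EpiLCs, D2PGCLCs, D4PGCLCs and D6PGCLCs in that order. Samples are ordered by CPM, also where counts are given. Log2 fold changes are given ± standard error, and adjusted p is from edgeR's quasi-likelihood test with Benjamini-Hochberg adjustment over all genes tested. A gene was called if its adjusted p was under 0.05 and its log2 fold change was above 1 or below -1. These p-values measure only the spread between samples, which the labels do not describe as separate cultures. EpiLCs were called higher than ESCs in 22 of 47 members (14.4% of all genes tested) and lower in 4 (11.9%). Of the 22, 7 met the count rule only with their EpiLC samples, so the rule leans to that direction for them: Cdh7, Cdh13, Cldn1, Cldn2, Itga4, Itgb2 and Itgb8. Of the other 40 members 15 were called higher. Of the 4 called lower, Cldn19 met the rule only with its ESC samples. Of all members called higher and lower, 18 and 3 had a mean under 10 CPM over the 15 samples, and 4 and 1 lay above. The median member log2 fold change was 0.90, or 0.85 with bounds for groups at 0, against -0.0065 for all genes tested. Member medians here and below cover all 47 members, also those that met the count rule only with the samples of a given group. The lean of the rule is thus part of these medians, which were not taken without such members. From EpiLCs to D2PGCLCs 8 members were called higher (11% of all genes tested) and 16 lower (14.4%), with a median of -0.64 against 0.0033 for all genes. Of the 16, 6 met the count rule only with their EpiLC samples, and of the other 40 members 10 were called lower. Of the 8 and 16, 5 and 14 had a mean under 10 CPM. The 8 called higher became 5 without EpiLC replicate 2, without D2PGCLC replicate 1 or without D2PGCLC replicate 3.

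**Figure D1:**
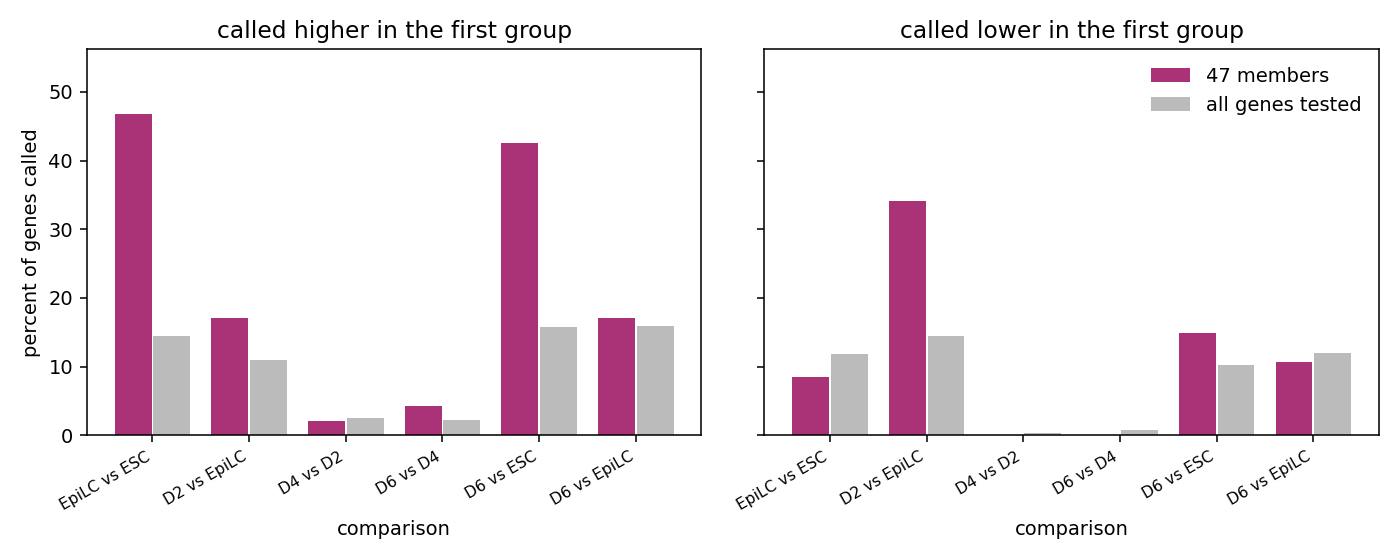
Percent of the 47 members (purple) and of all 18090 genes tested (grey) called higher (left panel) or lower (right panel) in the first group of each of 6 comparisons, by edgeR's quasi-likelihood test with adjusted p under 0.05 and log2 fold change beyond 1 or -1. Each group has 3 samples, and comparisons that name the same group share its samples.

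Between PGCLC days few genes of any kind passed, members included. In D4PGCLCs against D2PGCLCs, 1 member, Cdh23, was called higher (2.56% of all genes tested) and 0 lower (0.376%) by edgeR's quasi-likelihood test. At unadjusted p under 0.05 past the same cutoff 1 member, Itgb8, was lower, and DESeq2 called 0 lower. In D6PGCLCs against D4PGCLCs, Cldn1 and Cldn2 were called higher (2.29% of all genes tested) and 0 members lower (0.785%). Here 7 members were higher at unadjusted p under 0.05 past the cutoff (Cdh13, Cdh18, Cldn1, Cldn2, Cldn9, Itga11 and Itgb2) and 1, Cdh5, was lower, and DESeq2 called 0 lower. No share of all genes tested is given at unadjusted p for either step, so these unadjusted counts cannot be set against one. Without D4PGCLC replicate 1, D4PGCLC replicate 2, D4PGCLC replicate 3 or D6PGCLC replicate 1 neither Cldn1 nor Cldn2 was called. Without D6PGCLC replicate 2 the count of members called lower was 2. With only the 2 groups compared in the fit, Cldn1 and Cldn2 had no value, so their calls were not tested there. The medians of the 47 members were 0.12 from day 2 to day 4 and 0.30 from day 4 to day 6, against 0.018 and -0.013 for all genes tested.

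Set against ESCs, D6PGCLCs were called higher in 20 members (15.8% of all genes tested) and lower in 7 (10.3%). The median member log2 fold change was 1.21, or 0.80 with bounds, against -0.0022 for all genes tested. Set against EpiLCs, D6PGCLCs were called higher in 8 members (15.9%) and lower in 5 (12%), with a median of 0.049 against 0.034. Of the 5 called lower, 3 met the count rule only with their EpiLC samples. Of those called against ESCs, Cdh13 and Itga11, called higher, met it only with their D6PGCLC samples, and Cldn19, called lower, only with its ESC samples. All 7 and all 5 members called lower had a mean under 10 CPM over the 15 samples, as did 14 of the 20 and 5 of the 8 called higher. The comparisons share samples, so their counts do not add up as separate evidence. The highest group mean lay in EpiLCs for 17 members, in D6PGCLCs for 10, in ESCs for 8, in D4PGCLCs for 7 and in D2PGCLCs for 5. Of the 17, 7 met the count rule only with their EpiLC samples.

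**Figure D2:**
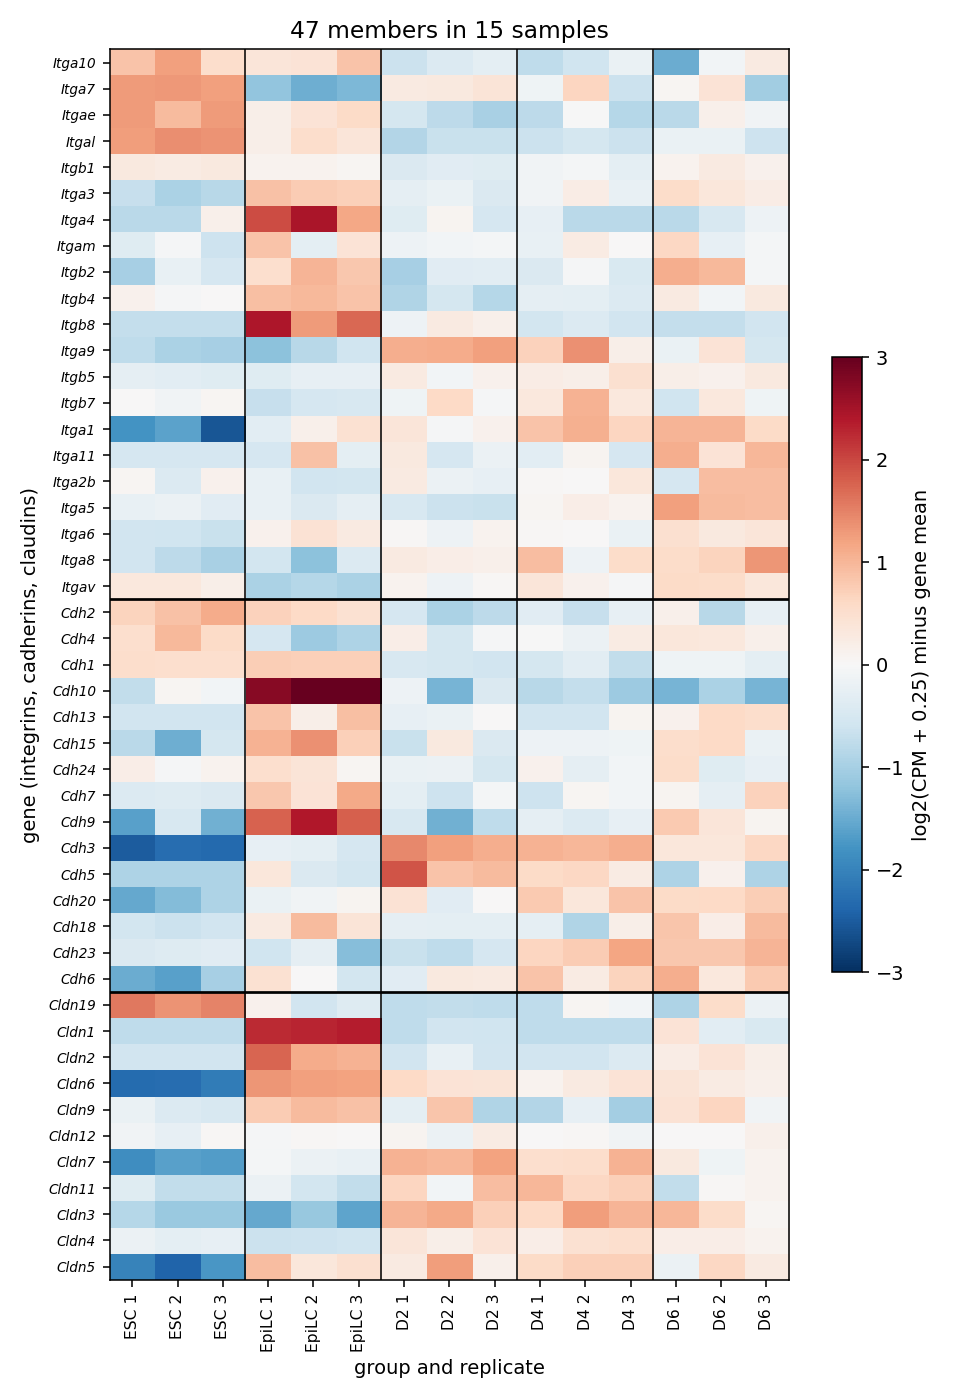
Level of each of the 47 members (lines of the map) in each of the 15 samples (columns, ordered by group and replicate), as log2 of CPM plus a small constant minus the mean of the gene over the samples. Red is above and blue below the mean of the gene, and colours are cut at the ends of the scale. Black lines divide the groups and the 3 families, and genes in each family are ordered by the group with their highest mean.

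The 2 cadherins with the most RNA per length changed in opposite directions from EpiLCs to D2PGCLCs, where Cdh1 fell and Cdh3 rose. The level of Cdh1, which encodes E-cadherin, was 541, 535 and 538 CPM in ESCs, 625, 622 and 622 CPM in EpiLCs, 271, 261 and 254 CPM in D2PGCLCs, 259, 301 and 224 CPM in D4PGCLCs, and 345, 346 and 308 CPM in D6PGCLCs. Every EpiLC sample lay above every ESC sample, all 9 PGCLC samples lay below both groups, and D2PGCLCs and D4PGCLCs overlapped. From EpiLCs to D2PGCLCs Cdh1 fell (log2 fold change -1.25 ± 0.09, adjusted p = 1.01e-09). Cdh1 did not pass the cutoff from ESCs to EpiLCs (log2 fold change 0.21 ± 0.09, adjusted p = 0.0483) or from ESCs to D6PGCLCs (log2 fold change -0.69 ± 0.09, adjusted p = 2.26e-06). D6PGCLCs lay above D4PGCLCs in every sample, also short of the cutoff (log2 fold change 0.35 ± 0.09, adjusted p = 0.0131).

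Cdh3, which encodes P-cadherin, had 11.02, 12.9 and 12.4 CPM in ESCs, 53.6, 51.8 and 44.5 CPM in EpiLCs, 173, 150.0 and 136 CPM in D2PGCLCs, 131, 127 and 135 CPM in D4PGCLCs, and 80.6, 80.0 and 98.0 CPM in D6PGCLCs. ESCs were lowest, EpiLCs came next, D2PGCLCs were highest, and no groups overlapped, although the lowest D2PGCLC and the highest D4PGCLC sample were almost level. Cdh3 rose from ESCs to EpiLCs (log2 fold change 2.05 ± 0.11, adjusted p = 2.84e-11) and again from EpiLCs to D2PGCLCs (log2 fold change 1.61 ± 0.10, adjusted p = 3.37e-10). D6PGCLCs remained above ESCs (log2 fold change 2.83 ± 0.11, adjusted p = 6.23e-13). The lower level on day 6 than on day 4 did not pass the cutoff (log2 fold change -0.60 ± 0.10, adjusted p = 9.26e-04).

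Scaled by exon length (RPKM), Cdh1 was at 118 ± 0.704 (mean ± SD, ESCs), 136 ± 0.401 (EpiLCs), 57.2 ± 1.83 (D2PGCLCs), 57.2 ± 8.39 (D4PGCLCs) and 72.8 ± 4.79 (D6PGCLCs). Cdh3 was at 2.76 ± 0.222, 11.4 ± 1.09, 34.9 ± 4.23, 29.8 ± 0.952 and 19.7 ± 2.33 RPKM in the same order. The part of Cdh3 in the RPKM sum of Cdh1 and Cdh3 was 2.08, 2.45 and 2.35% (ESCs), 8.21, 7.99 and 6.95% (EpiLCs), 40.0, 37.5 and 35.8% (D2PGCLCs), 34.5, 30.5 and 38.6% (D4PGCLCs) and 19.6, 19.4 and 24.9% (D6PGCLCs). The PGCLC samples all lay above the other 6, and D6PGCLCs lay below D2PGCLCs and D4PGCLCs. Cdh1 and Cdh3 together made up 95.2% to 96.4% of the RPKM of all 15 cadherin members in the group means.

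**Figure D3:**
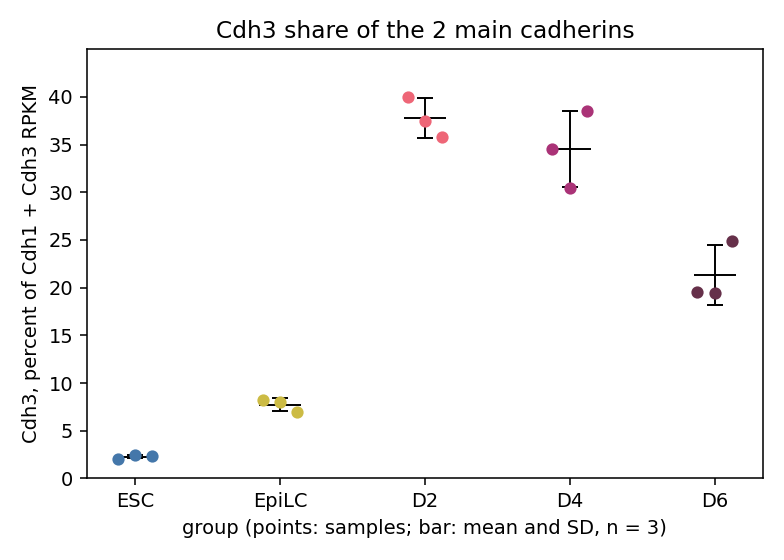
Part of Cdh3 in the RPKM sum of Cdh1 and Cdh3, in percent, in each of the 15 samples (points) with the mean and SD of each group (bars, n = 3). RPKM uses the union length of the exons of each gene.

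Cdh2, which encodes N-cadherin, had 7.77, 8.99 and 10.6 CPM in ESCs, 7.84, 7.30 and 6.61 CPM in EpiLCs, 3.31, 2.33 and 2.64 CPM in D2PGCLCs, 3.70, 2.86 and 3.98 CPM in D4PGCLCs, and 5.36, 2.58 and 4.00 CPM in D6PGCLCs. All 9 PGCLC samples lay below all ESC and EpiLC samples, and ESCs and EpiLCs overlapped. Cdh2 fell from EpiLCs to D2PGCLCs (log2 fold change -1.39 ± 0.24, adjusted p = 9.23e-05) and was lower in D6PGCLCs than in ESCs (log2 fold change -1.20 ± 0.24, adjusted p = 2.89e-04). Without D6PGCLC replicate 2 the latter was -0.97 and no longer called. Against EpiLCs, D6PGCLCs did not pass the cutoff (log2 fold change -0.87 ± 0.24, adjusted p = 0.00397), but were called lower without D6PGCLC replicate 1, at -1.14 (adjusted p = 5.4e-04). Cdh2 was not called higher in any comparison.

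Cdh4, which encodes R-cadherin, had 138, 161 and 157 counts (ESCs), 62, 45 and 46 (EpiLCs) and 169, 197 and 137 (D6PGCLCs). ESCs and D6PGCLCs lay above EpiLCs in every sample. Cdh4 fell from ESCs to EpiLCs (log2 fold change -1.65 ± 0.25, adjusted p = 2.2e-05) and was higher in D6PGCLCs than in EpiLCs (log2 fold change 1.20 ± 0.25, adjusted p = 4.7e-04). Cdh15, the M-cadherin gene of muscle, had 17, 7 and 24 counts (ESCs), 76, 113 and 61 (EpiLCs) and 23, 45 and 29 (D2PGCLCs). It was called higher in EpiLCs than in ESCs and lower in D2PGCLCs than in EpiLCs.

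Type II cadherins, many of them known from neural tissue, had few reads apart from Cdh24, and 7 of the 8 such members were called higher in EpiLCs than in ESCs (14.4% of all genes tested), or 6 of 7 without Cdh7, which met the count rule only with its EpiLC samples. Of the 4 neural markers, Neurod1 and Pax6 were also higher in every EpiLC than in every ESC sample. Pax6 had its highest mean in D4PGCLCs, 8.71 CPM against 3.01 CPM in EpiLCs. Sox1 overlapped and Tubb3 lay lower in EpiLCs than in ESCs without being called. Whether the cadherin reads came from a few cells was not tested. Cdh10 had 4, 10 and 11 counts (ESCs), 108, 188 and 146 (EpiLCs), 11, 0 and 8 (D2PGCLCs), 4, 5 and 2 (D4PGCLCs) and 0, 4 and 0 (D6PGCLCs). Every EpiLC sample was above all other samples. Cdh10 had the lowest log2 fold change after Cldn1 and Cldn2 from EpiLCs to D2PGCLCs (log2 fold change -4.69 ± 0.67, adjusted p = 9.37e-06). It was also the lowest in D6PGCLCs against EpiLCs (log2 fold change -7.15 ± 0.81, adjusted p = 4.89e-07) and against ESCs (log2 fold change -3.11 ± 0.93, adjusted p = 0.00882). Cdh9 had 0, 7 and 1 counts (ESCs), 62, 117 and 66 (EpiLCs), 10, 1 and 7 (D2PGCLCs) and 41, 34 and 20 (D6PGCLCs). It too was highest in EpiLCs, and D6PGCLCs lay below EpiLCs and above ESCs in every sample. The call of Cdh9 in D6PGCLCs against EpiLCs was lost without EpiLC replicate 2 (adjusted p = 0.0630). Cdh6, Cdh7, Cdh18 and Cdh20 were also called higher in EpiLCs than in ESCs, each with at most 1.29 CPM in any group mean. Of these only Cdh7 had its highest mean in EpiLCs, and Cdh6 and Cdh18 had theirs in D6PGCLCs and Cdh20 in D4PGCLCs. The calls of Cdh7 and Cdh18 in that comparison were lost in 2 and 1 of the 15 fits with 1 sample left out. Cdh24, the remaining type II member, had 3591 counts over the 15 samples and was not called in any comparison.

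Cdh5, the VE-cadherin gene of endothelium, had 0, 0 and 0 counts (ESCs), 9, 3 and 2 (EpiLCs), 49, 17 and 22 (D2PGCLCs), 15, 16 and 11 (D4PGCLCs) and 0, 12 and 0 (D6PGCLCs). D2PGCLCs were highest in every sample, and 2 of the 3 D6PGCLC samples had none. EpiLCs were at least 1.51-fold above ESCs, taking 3 counts per library as the floor for the group at 0, but without EpiLC replicate 1 the bound was 0.756-fold, so no bound above the floor remained. The gene was among the 3 highest of the members called higher from EpiLCs to D2PGCLCs (log2 fold change 2.42 ± 0.95, adjusted p = 0.0422). That call was lost in 9 of the 15 fits with 1 sample left out (highest adjusted p 0.187), and the call from ESCs to EpiLCs in 4.

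Cdh23, a tip-link protein of hair cells, was the member called between D2PGCLCs and D4PGCLCs. It had 9, 8 and 11 counts (ESCs), 7, 12 and 2 (EpiLCs), 8, 6 and 10 (D2PGCLCs), 32, 36 and 53 (D4PGCLCs) and 43, 51 and 47 (D6PGCLCs). The 6 samples of the later days lay above the other 9, with no overlap. Cdh23 rose from day 2 to day 4 (log2 fold change 2.21 ± 0.50, adjusted p = 0.00717), a call kept in all 15 fits with 1 sample left out, and was higher in D6PGCLCs than in EpiLCs (log2 fold change 2.25 ± 0.50, adjusted p = 8.05e-04). Cdh13, the T-cadherin gene whose product has no cytoplasmic tail, had 0, 0 and 0 counts (ESCs), 11, 5 and 12 (EpiLCs) and 6, 14 and 10 (D6PGCLCs). Every D6PGCLC sample was above every ESC sample, and the mean lay at least 2.19-fold above the floor set for ESCs, but Cdh13 missed the count rule without its D6PGCLC samples, as it did without its EpiLC samples.

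Genes listed as partners of the members moved in different ways. Of 75 partner genes in 8 lists (adaptors, integrin ligands, catenins, tight junction partners, repressors of Cdh1, epithelial genes, desmosome genes and nectins), 69 were tested. Of these, 18 were called higher (14.4% of all genes tested) and 12 lower (11.9%) from ESCs to EpiLCs, and 15 (11%) and 12 (14.4%) from EpiLCs to D2PGCLCs. Most genes named from the lists were chosen among those called. Of 6 catenin genes tested, 1 was called higher (14.4% of all genes tested) and 1 lower (11.9%) from ESCs to EpiLCs. From EpiLCs to D2PGCLCs 1 was called higher (11%) and 0 lower (14.4%). Ctnnb1, the beta-catenin gene, had means of 579.7, 931, 760.2, 776 and 798 CPM and was not called in any comparison. Zeb1, a repressor of Cdh1, had means of 18.6, 7.99, 19.4, 22.8 and 29.4 CPM. Zeb1 was higher in D2PGCLCs than in EpiLCs (log2 fold change 1.28 ± 0.15, adjusted p = 8.21e-07) and in D6PGCLCs than in EpiLCs (log2 fold change 1.87 ± 0.15, adjusted p = 4.73e-09). Of the repressors below 20 CPM in every group, 3 are named after their values were seen. Snai1 had means of 2.52, 3.66, 0.490, 0.238 and 0.557 CPM and fell from EpiLCs to D2PGCLCs (log2 fold change -2.89 ± 0.51, adjusted p = 9.75e-05). Zeb2 (log2 fold change -2.60 ± 0.72, adjusted p = 0.00541) and Twist1 (log2 fold change -1.22 ± 0.32, adjusted p = 0.00368) were lower at the same step, at which Cdh1 was also lower. The call of Twist1 was lost without EpiLC replicate 3, at -0.98. Whether any of them acts on Cdh1 here was not tested.

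Of the 8 epithelial genes, 5 were called higher (14.4% of all genes tested) and 0 lower (11.9%) from ESCs to EpiLCs. From EpiLCs to D2PGCLCs 0 were called higher (11%) and 3 lower (14.4%). Epcam, an adhesion molecule of epithelia, had means of 58.3, 261, 205, 194 and 173 CPM, and rose from ESCs to EpiLCs (log2 fold change 2.16 ± 0.09, adjusted p = 5.06e-13). Esrp1, a splicing factor of epithelial cells, had means of 2.61, 149, 186, 146 and 81.0 CPM (log2 fold change 5.82 ± 0.12, adjusted p = 1.33e-16 from ESCs to EpiLCs). Grhl2, an epithelial transcription factor, had means of 5.23, 96.3, 15.9, 9.82 and 11.2 CPM. Grhl2 rose from ESCs to EpiLCs (log2 fold change 4.20 ± 0.18, adjusted p = 9.52e-13) and fell from EpiLCs to D2PGCLCs (log2 fold change -2.59 ± 0.16, adjusted p = 2.08e-10). Krt8, a keratin of simple epithelia, had means of 25.8, 21.6, 5.45, 4.74 and 5.99 CPM and fell from EpiLCs to D2PGCLCs (log2 fold change -1.99 ± 0.19, adjusted p = 8.69e-08). Krt18, its usual partner, had means of 3.91, 20.1, 6.26, 7.12 and 13.2 CPM. Krt18 rose from ESCs to EpiLCs (log2 fold change 2.36 ± 0.15, adjusted p = 2.04e-10) and fell from EpiLCs to D2PGCLCs (log2 fold change -1.68 ± 0.14, adjusted p = 1.35e-08).

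**Figure D4:**
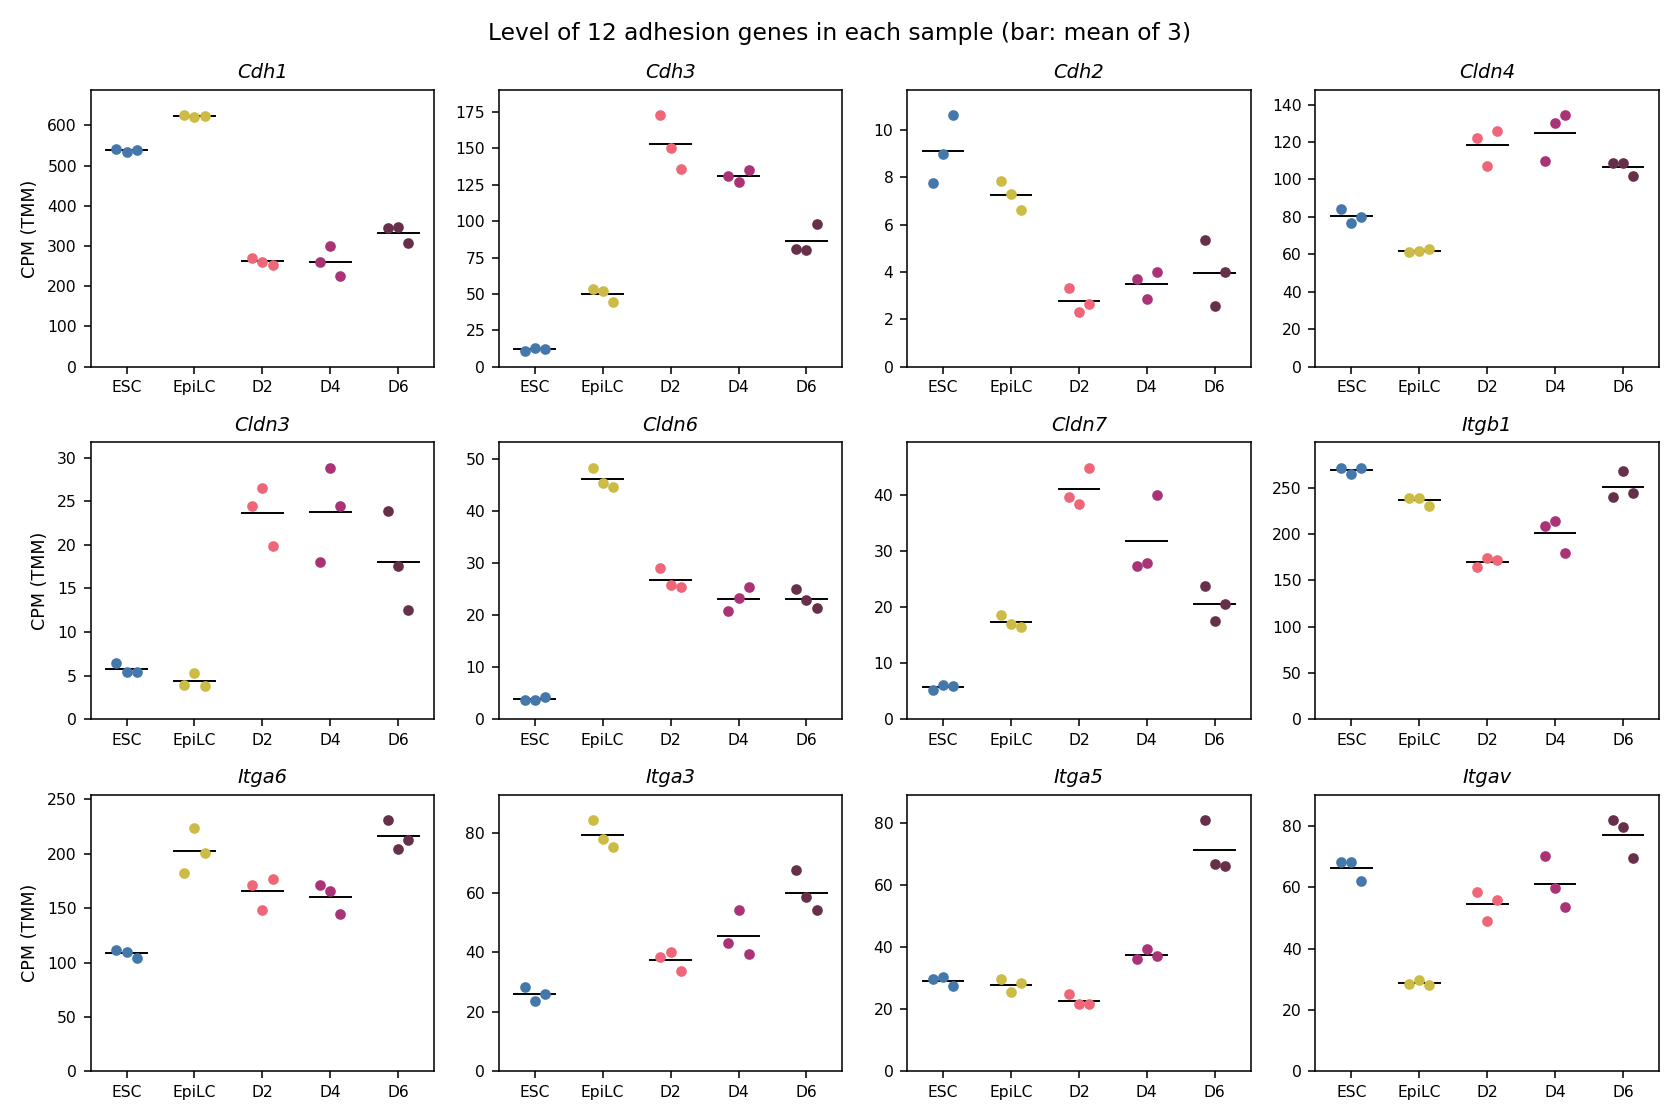
Level of 12 members in each sample, in CPM after TMM scaling, with axes that start at 0 and differ between panels. Points are samples, bars are means of 3, and D2, D4 and D6 stand for the days of PGCLC induction.

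Cldn4 held the largest part of claudin RNA per length in every group, and its part was highest in ESCs and lowest in EpiLCs. Summed over the 11 claudin members, RPKM was 62.6 ± 2.74 (mean ± SD, ESCs), 88.1 ± 2.03 (EpiLCs), 135 ± 3.26 (D2PGCLCs), 131 ± 14.6 (D4PGCLCs) and 110.2 ± 7.51 (D6PGCLCs). Cldn4 made up 70.6 ± 0.993% of it (ESCs), 38.6 ± 1.37% (EpiLCs), 48.2 ± 2.98% (D2PGCLCs), 52.4 ± 0.397% (D4PGCLCs) and 53.3 ± 2.01% (D6PGCLCs). The level of Cldn4, a claudin of tight epithelia, was 84.0, 76.9 and 79.8 CPM in ESCs, 61.0, 61.6 and 62.7 CPM in EpiLCs, 122, 107 and 126 CPM in D2PGCLCs, 109.9, 130.0 and 134 CPM in D4PGCLCs, and 109, 109 and 102 CPM in D6PGCLCs. EpiLCs lay below ESCs and every PGCLC sample lay above both, and the PGCLC days overlapped in part. No difference of Cldn4 passed the cutoff, from ESCs to EpiLCs (log2 fold change -0.38 ± 0.09, adjusted p = 0.00106), from EpiLCs to D2PGCLCs (log2 fold change 0.94 ± 0.09, adjusted p = 3.4e-08) or from EpiLCs to D6PGCLCs (log2 fold change 0.79 ± 0.09, adjusted p = 2.68e-07). Without D2PGCLC replicate 2 Cldn4 passed it from EpiLCs to D2PGCLCs, at 1.01.

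Cldn3 and Cldn4 lie next to each other, 39279 bases apart on chromosome 5, and Cldn3 moved more. Cldn3, which like Cldn4 encodes a receptor for a clostridial toxin, had 6.46, 5.39 and 5.39 CPM in ESCs, 3.94, 5.33 and 3.85 CPM in EpiLCs, 24.5, 26.5 and 19.9 CPM in D2PGCLCs, 18.1, 28.9 and 24.5 CPM in D4PGCLCs, and 23.9, 17.6 and 12.5 CPM in D6PGCLCs. All 9 PGCLC samples were above all ESC and EpiLC samples, and the PGCLC days overlapped. Cldn3 rose from EpiLCs to D2PGCLCs (log2 fold change 2.43 ± 0.23, adjusted p = 4.56e-08) and was higher in D6PGCLCs than in EpiLCs (log2 fold change 2.04 ± 0.22, adjusted p = 3.3e-07) and ESCs (log2 fold change 1.65 ± 0.22, adjusted p = 4.43e-06).

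Cldn6, a claudin of embryonic epithelia, rose at the EpiLC step. It had 3.69, 3.73 and 4.29 CPM in ESCs, 48.4, 45.5 and 44.8 CPM in EpiLCs, 29.1, 25.8 and 25.4 CPM in D2PGCLCs, 20.9, 23.2 and 25.5 CPM in D4PGCLCs, and 25.1, 23.0 and 21.5 CPM in D6PGCLCs. ESCs were lowest and EpiLCs highest, with the PGCLC samples between them and no overlap with either. Cldn6 rose from ESCs to EpiLCs (log2 fold change 3.56 ± 0.12, adjusted p = 5.12e-14) and remained higher in D6PGCLCs than in ESCs (log2 fold change 2.57 ± 0.12, adjusted p = 4.8e-12). From EpiLCs to D2PGCLCs it did not pass the cutoff (log2 fold change -0.79 ± 0.11, adjusted p = 4.61e-06). In D6PGCLCs against EpiLCs it was just short of the cutoff (log2 fold change -0.996 ± 0.11, adjusted p = 2.15e-07), and DESeq2 called it, at -1.03. edgeR called it with DESeq2 size factors, with only the 2 groups compared in the fit, without EpiLC replicate 3, at -1.01, and without D6PGCLC replicate 1, at -1.05. Cldn9, which lies 137 bases from Cldn6 on chromosome 17, was also called higher in EpiLCs than in ESCs (log2 fold change 1.61 ± 0.56, adjusted p = 0.0210), a call lost in 2 of the 15 fits with 1 sample left out.

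Cldn7, a claudin of many epithelia, was highest in D2PGCLCs, with 5.14, 6.09 and 5.90 CPM in ESCs, 18.6, 17.1 and 16.5 CPM in EpiLCs, 39.7, 38.5 and 45.0 CPM in D2PGCLCs, 27.3, 27.9 and 40.1 CPM in D4PGCLCs, and 23.8, 17.5 and 20.6 CPM in D6PGCLCs. ESCs were below all other samples, D2PGCLCs overlapped D4PGCLCs at their highest sample, and D6PGCLCs overlapped EpiLCs. It rose from ESCs to EpiLCs (log2 fold change 1.61 ± 0.16, adjusted p = 8.82e-08) and from EpiLCs to D2PGCLCs (log2 fold change 1.24 ± 0.15, adjusted p = 9.58e-07). D6PGCLCs lay above ESCs (log2 fold change 1.85 ± 0.16, adjusted p = 1.36e-08), and below D4PGCLCs short of the cutoff (log2 fold change -0.62 ± 0.14, adjusted p = 0.00836). Cldn12, which lacks the usual PDZ-binding end, had 31.2, 28.2 and 34.5 CPM in ESCs, 32.6, 34.6 and 34.1 CPM in EpiLCs, 35.7, 29.8 and 39.8 CPM in D2PGCLCs, 34.1, 34.6 and 31.0 CPM in D4PGCLCs, and 33.9, 33.8 and 37.1 CPM in D6PGCLCs. All 5 groups overlapped, and Cldn12 was not called in any comparison. Cldn3, Cldn4, Cldn6 and Cldn7 together held from 83.2% (EpiLCs) to 89.4% (D4PGCLCs) of claudin RPKM in the group means.

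Of the low claudins, Cldn1 and Cldn2 had their highest level in EpiLCs, without whose samples they missed the count rule. Cldn1, a claudin of the skin barrier, had 0, 0 and 0 counts (ESCs), 46, 55 and 52 (EpiLCs), 0, 1 and 1 (D2PGCLCs), 0, 0 and 0 (D4PGCLCs) and 12, 4 and 2 (D6PGCLCs). Cldn2, a claudin that forms a cation pore, had 0, 0 and 0 counts (ESCs), 26, 17 and 14 (EpiLCs), 0, 2 and 0 (D2PGCLCs), 0, 0 and 1 (D4PGCLCs) and 7, 11 and 6 (D6PGCLCs). For both genes every EpiLC sample was above all other samples. EpiLCs were at least 16.0-fold above ESCs for Cldn1 and at least 6.05-fold for Cldn2, and both were called lower in D2PGCLCs than in EpiLCs. In D6PGCLCs against D4PGCLCs the adjusted p was 0.0220 for Cldn1 and 0.0378 for Cldn2. With 1 sample left out, these calls were lost in 4 and 9 of 15 fits (highest adjusted p 0.0771 and 0.138), and that of Cldn2 also with no filter and with the replicate block. For Cldn1, D6PGCLCs were at least 1.72-fold above the floor set for D4PGCLCs, but with 1 library left out the bound fell to 0.813-fold. Against ESCs, D6PGCLCs were at least 1.75-fold higher for Cldn2. The bound for Cldn1 was 1.35-fold and fell to 0.636-fold with 1 library left out, so no bound above the floor remained. Cldn1 was called lower in D6PGCLCs than in EpiLCs (log2 fold change -3.54 ± 0.72, adjusted p = 6.75e-04).

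Cldn5, a claudin of endothelium, had means of 0.975, 7.32, 7.60, 7.70 and 5.80 CPM and rose from ESCs to EpiLCs (log2 fold change 2.88 ± 0.33, adjusted p = 5.99e-07). Cldn11, known from myelin and Sertoli cells, had 3, 1 and 0 counts (EpiLCs), 13, 4 and 18 (D2PGCLCs), 19, 13 and 15 (D4PGCLCs) and 0, 8 and 7 (D6PGCLCs). D2PGCLCs lay above EpiLCs in every sample, and the gene was first among the members called higher at this step (adjusted p = 0.0373), a call lost in 7 of the 15 fits with 1 sample left out and with the replicate block (adjusted p = 0.0550). Cldn19, known from kidney and myelin, had 32, 22 and 32 counts (ESCs), 7, 2 and 3 (EpiLCs) and 0, 20 and 6 (D6PGCLCs). ESCs were above both, and Cldn19 fell from ESCs to EpiLCs (log2 fold change -2.84 ± 0.89, adjusted p = 0.0118) and was lower in D6PGCLCs than in ESCs (log2 fold change -2.34 ± 0.83, adjusted p = 0.0238). Those 2 calls were lost in 2 and 3 of the 15 fits with 1 sample left out, and the count rule, which Cldn19 met only with its ESC samples, leans to their direction.

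Of 10 partners of claudins at the tight junction, 2 were called higher (14.4% of all genes tested) and 3 lower (11.9%) from ESCs to EpiLCs. From EpiLCs to D2PGCLCs 4 were called higher (11%) and 1 lower (14.4%). Tjp1, the ZO-1 scaffold gene, had means of 147, 321, 223, 204 and 198 CPM and rose from ESCs to EpiLCs (log2 fold change 1.13 ± 0.12, adjusted p = 1.74e-07). Tjp3, the ZO-3 gene, had means of 23.4, 10.4, 89.0, 82.9 and 58.5 CPM and rose from EpiLCs to D2PGCLCs (log2 fold change 3.09 ± 0.16, adjusted p = 1.77e-11). Cgn, the cingulin gene, had means of 4.83, 89.6, 39.1, 30.1 and 38.3 CPM, rose from ESCs to EpiLCs (log2 fold change 4.21 ± 0.16, adjusted p = 1.83e-13) and fell from EpiLCs to D2PGCLCs (log2 fold change -1.20 ± 0.14, adjusted p = 5.5e-07). F11r, the JAM-A gene, had means of 45.6, 73.9, 169, 146 and 103 CPM and rose from EpiLCs to D2PGCLCs (log2 fold change 1.19 ± 0.09, adjusted p = 2.85e-09). Ocln, the occludin gene, had means of 19.3, 8.62, 20.3, 15.1 and 12.1 CPM (log2 fold change 1.24 ± 0.18, adjusted p = 1.3e-05 for the same step). Jam2, which encodes JAM-B, had means of 181, 19.2, 25.7, 20.9 and 23.2 CPM and fell from ESCs to EpiLCs (log2 fold change -3.24 ± 0.15, adjusted p = 2.75e-12). The means of Tjp3 and Ocln were also lower in EpiLCs than in ESCs.

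The sequence upstream of 3 of these claudins was read from the genome build GRCm38.p6, as the 250 bases before the start of transcription in the direction of the gene. Among 32851 such promoter windows, 17.2% held the E-box letters CACCTG on either strand, which SNAI and ZEB factors bind, and 13.7% held the AP-2 letters GCCNNNGGC. Of 41 windows at 34 members, 10 held CACCTG and 7 held GCCNNNGGC. The window of Cldn4 (chr5:134946935-134947184, minus strand) held 1 CACCTG, in capitals, near its end. Those shown of Cldn3 (chr5:134985964-134986213, plus strand) and Cldn7 (chr11:69964529-69964778, plus strand) held neither, and a further window of Cldn7, at a start not in the gene annotation used, held 2 CACCTG. Whether the 3 windows overlap annotated exons was not tested, and 40 exon bases of Cldn3 itself overlap Wbscr25 on the opposite strand. A match of letters does not show that a protein binds there.
Cldn4: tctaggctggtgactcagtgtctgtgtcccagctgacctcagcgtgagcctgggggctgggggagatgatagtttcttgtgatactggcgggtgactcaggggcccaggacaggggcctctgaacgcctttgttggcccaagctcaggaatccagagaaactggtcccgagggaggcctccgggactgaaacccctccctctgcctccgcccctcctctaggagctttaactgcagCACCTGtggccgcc
Cldn3: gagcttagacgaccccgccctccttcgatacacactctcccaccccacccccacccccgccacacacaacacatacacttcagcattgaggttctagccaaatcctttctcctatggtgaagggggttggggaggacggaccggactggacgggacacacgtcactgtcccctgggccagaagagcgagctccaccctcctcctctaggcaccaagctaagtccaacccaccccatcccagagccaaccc
Cldn7: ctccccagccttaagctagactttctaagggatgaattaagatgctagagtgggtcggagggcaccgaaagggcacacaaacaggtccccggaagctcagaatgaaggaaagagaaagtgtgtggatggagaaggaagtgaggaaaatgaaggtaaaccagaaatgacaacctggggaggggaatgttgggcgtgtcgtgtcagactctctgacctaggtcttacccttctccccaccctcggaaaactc

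Among the members, Itgb1 held most of the beta chain RNA per length and Itga6 the largest part of the alpha chain RNA. Summed RPKM of the alpha chain members was 33.9 ± 1.18 (mean ± SD, ESCs), 47.9 ± 1.69 (EpiLCs), 38.2 ± 1.97 (D2PGCLCs), 42.6 ± 3.94 (D4PGCLCs) and 59.4 ± 4.51 (D6PGCLCs). For the beta chain members, Itgb3 not included, it was 85.2 ± 1.23, 76.3 ± 1.11, 65.5 ± 1.67, 77.9 ± 5.07 and 85.5 ± 4.94 RPKM in the same order. Itgb1, whose chain pairs with most alpha chains, held 77.5 ± 0.263% of the beta sum (ESCs) and 63.7 ± 1.05% (D2PGCLCs). Its level was 271, 265 and 272 CPM in ESCs, 239.8, 239 and 230.4 CPM in EpiLCs, 164, 175 and 172 CPM in D2PGCLCs, 208, 214 and 180.1 CPM in D4PGCLCs, and 240.4, 268 and 244 CPM in D6PGCLCs. ESCs were highest together with D6PGCLCs, which overlapped them, and D2PGCLCs were below all other samples. Itgb1 was not called in any comparison (log2 fold change -0.47 ± 0.08, adjusted p = 3.1e-05 from EpiLCs to D2PGCLCs).

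**Figure D5:**
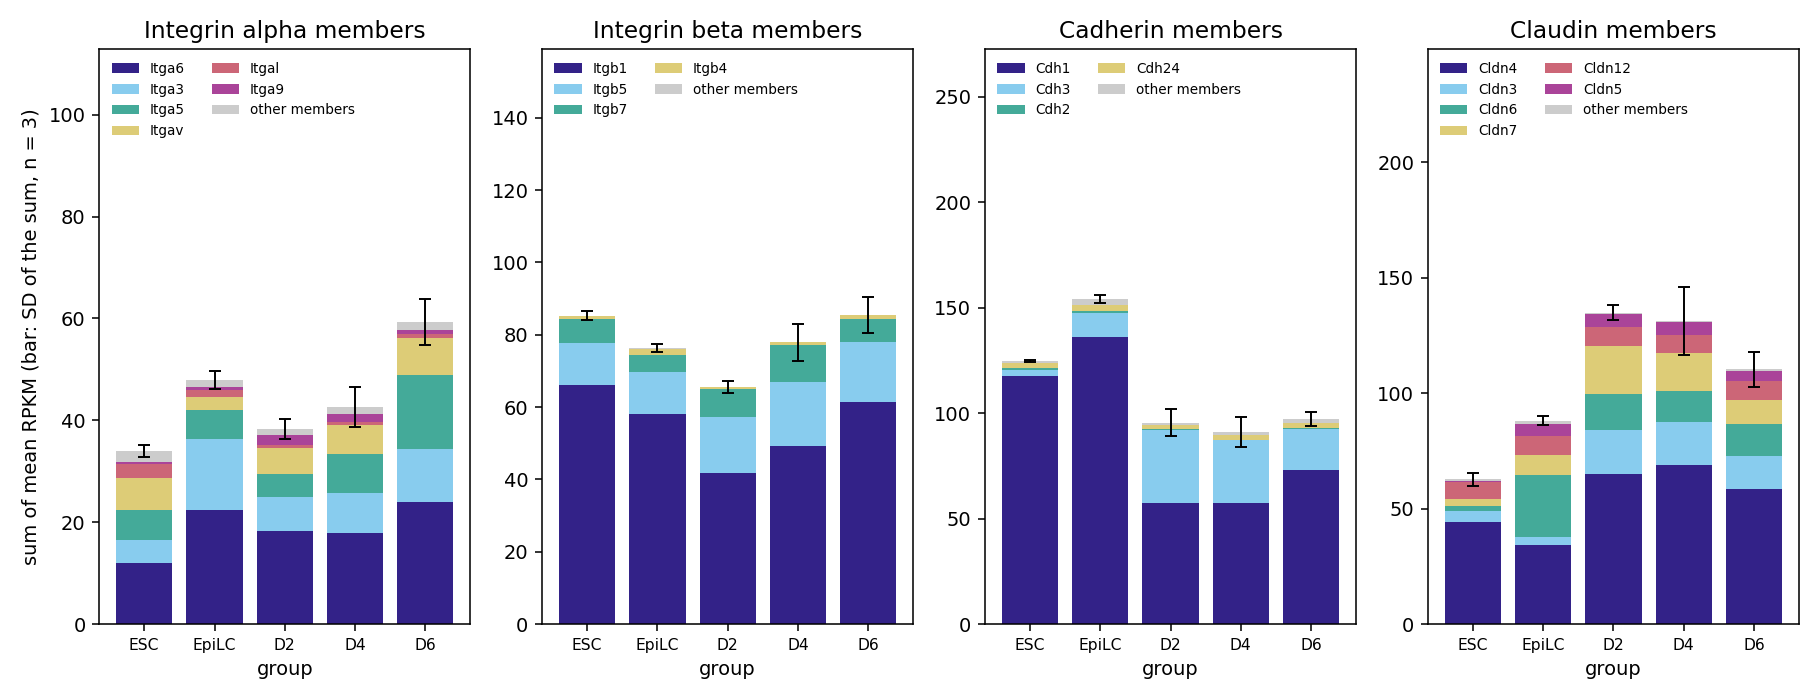
Mean RPKM of integrin alpha, integrin beta, cadherin and claudin members in each group, stacked by gene, with members not named in the key in grey. The bar at the top is the SD of the sum over 3 samples. The vertical axes differ between panels, and Itgb3 is not among the beta chains.

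The laminin-binding chains differed from each other. Itga6, the alpha chain of laminin receptors, had 112, 109.9 and 104 CPM in ESCs, 182, 224 and 201 CPM in EpiLCs, 171, 148 and 177 CPM in D2PGCLCs, 171, 166 and 145 CPM in D4PGCLCs, and 231, 204 and 212 CPM in D6PGCLCs. ESCs were below all other samples, D2PGCLCs and D4PGCLCs overlapped, and D6PGCLCs overlapped EpiLCs. Itga6 was just short of the cutoff from ESCs to EpiLCs (log2 fold change 0.90 ± 0.09, adjusted p = 1.61e-07) and from ESCs to D6PGCLCs (log2 fold change 0.99 ± 0.09, adjusted p = 4.71e-08). The latter passed it with only the 2 groups compared in the fit, at 1.02, and in 7 of the 15 fits with 1 sample left out. Itga3, which pairs with beta 1 to bind laminins of basement membranes, had 28.4, 23.6 and 25.9 CPM in ESCs, 84.5, 78.2 and 75.6 CPM in EpiLCs, 38.4, 40.2 and 33.8 CPM in D2PGCLCs, 43.0, 54.2 and 39.3 CPM in D4PGCLCs, and 67.7, 58.4 and 54.2 CPM in D6PGCLCs. EpiLCs were above and ESCs below all other samples, and D6PGCLCs overlapped D4PGCLCs only at their lowest sample. Itga3 rose from ESCs to EpiLCs (log2 fold change 1.61 ± 0.12, adjusted p = 2.07e-09) and fell from EpiLCs to D2PGCLCs (log2 fold change -1.08 ± 0.12, adjusted p = 3.61e-07), and D6PGCLCs lay above ESCs (log2 fold change 1.21 ± 0.12, adjusted p = 1.06e-07).

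Itga7, the laminin-binding chain of muscle, had 136, 114 and 143 counts (ESCs), 18, 16 and 16 (EpiLCs), 76, 66 and 85 (D2PGCLCs) and 75, 118 and 28 (D6PGCLCs). By CPM, ESCs were above all the other samples named here and EpiLCs below them. Itga7 had the lowest log2 fold change among the calls from ESCs to EpiLCs (log2 fold change -3.03 ± 0.41, adjusted p = 5.65e-06). It rose from EpiLCs to D2PGCLCs (log2 fold change 2.00 ± 0.41, adjusted p = 4.71e-04) and remained lower in D6PGCLCs than in ESCs (log2 fold change -1.45 ± 0.37, adjusted p = 0.00262). Itgb4, which pairs with alpha 6 in hemidesmosomes, had means of 5.97, 11.1, 3.33, 4.60 and 6.55 CPM and fell from EpiLCs to D2PGCLCs (log2 fold change -1.74 ± 0.17, adjusted p = 8.19e-08).

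Itga5 and Itgav, whose chains bind fibronectin and other RGD proteins, had their highest mean on day 6. Itga5, which pairs with beta 1 as the main fibronectin receptor, had 29.7, 30.4 and 27.4 CPM in ESCs, 29.7, 25.6 and 28.6 CPM in EpiLCs, 24.8, 21.9 and 21.7 CPM in D2PGCLCs, 36.2, 39.4 and 37.1 CPM in D4PGCLCs, and 81.0, 66.7 and 66.0 CPM in D6PGCLCs. D6PGCLCs were above all other samples, D4PGCLCs above the remaining 9, and ESCs and EpiLCs overlapped. Itga5 was higher in D6PGCLCs than in ESCs (log2 fold change 1.29 ± 0.10, adjusted p = 4.09e-09) and EpiLCs (log2 fold change 1.35 ± 0.10, adjusted p = 1.95e-09). The steps from day 2 to day 4 (log2 fold change 0.72 ± 0.10, adjusted p = 2.23e-04) and from day 4 to day 6 (log2 fold change 0.92 ± 0.10, adjusted p = 1.75e-05) did not pass the cutoff on their own. Between ESCs, grown on laminin, and EpiLCs, grown on fibronectin, Itga5 was not called.

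Itgav, whose chain pairs with several beta chains, had 68.2, 68.1 and 62.1 CPM in ESCs, 28.3, 29.8 and 28.2 CPM in EpiLCs, 58.4, 49.0 and 55.8 CPM in D2PGCLCs, 70.0, 59.6 and 53.5 CPM in D4PGCLCs, and 81.9, 79.7 and 69.6 CPM in D6PGCLCs. EpiLCs were below all other samples, and the other groups overlapped in part. Itgav fell from ESCs to EpiLCs (log2 fold change -1.20 ± 0.10, adjusted p = 1.4e-08) and was higher in D6PGCLCs than in EpiLCs (log2 fold change 1.42 ± 0.10, adjusted p = 1.38e-09). From EpiLCs to D2PGCLCs it was just short of the cutoff (log2 fold change 0.92 ± 0.10, adjusted p = 4.89e-07). Itgb5, a partner of the alpha v chain, had 42.2, 41.3 and 39.6 CPM in ESCs, 39.6, 43.1 and 43.4 CPM in EpiLCs, 61.2, 48.5 and 56.2 CPM in D2PGCLCs, 59.5, 57.5 and 71.7 CPM in D4PGCLCs, and 58.0, 55.8 and 63.2 CPM in D6PGCLCs. ESCs and EpiLCs overlapped and were below all PGCLC samples. Itgb5 did not pass the cutoff from EpiLCs to D2PGCLCs (log2 fold change 0.40 ± 0.10, adjusted p = 0.00271) or from ESCs to D6PGCLCs (log2 fold change 0.52 ± 0.10, adjusted p = 2.33e-04). Itga8, which binds nephronectin in the kidney, had 8, 3 and 10 counts (EpiLCs), 24, 19 and 22 (D2PGCLCs) and 36, 47 and 63 (D6PGCLCs). These 3 groups did not overlap, and Itga8 had the highest log2 fold change in D6PGCLCs against EpiLCs (log2 fold change 2.28 ± 0.54, adjusted p = 0.00133). Its call from EpiLCs to D2PGCLCs (log2 fold change 1.43 ± 0.55, adjusted p = 0.0349) was lost in 5 of the 15 fits with 1 sample left out and with no filter (adjusted p = 0.0694).

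Itga9, which pairs with beta 1 to bind tenascin, had 3.72, 3.24 and 3.12 CPM in ESCs, 2.60, 3.52 and 4.18 CPM in EpiLCs, 13.9, 14.2 and 15.4 CPM in D2PGCLCs, 10.6, 17.1 and 7.30 CPM in D4PGCLCs, and 5.62, 8.65 and 4.37 CPM in D6PGCLCs. All 9 PGCLC samples were above all ESC and EpiLC samples, D2PGCLCs overlapped D4PGCLCs, and the highest D6PGCLC sample lay above the lowest D4PGCLC sample. Itga9 rose from EpiLCs to D2PGCLCs (log2 fold change 2.07 ± 0.28, adjusted p = 5.42e-06). From D4PGCLCs to D6PGCLCs it did not pass the test with the cutoff (log2 fold change -0.91 ± 0.27, adjusted p = 0.0311), and it was called without D4PGCLC replicate 3, at -1.16, and without D6PGCLC replicate 2, at -1.23. Itga4, the close relative of Itga9, had 0, 0 and 7 counts (ESCs), 38, 65 and 20 (EpiLCs) and 0, 3 and 5 (D6PGCLCs). EpiLCs were above both, and Itga4, which missed the count rule without its EpiLC samples, was among the 3 lowest in D6PGCLCs against EpiLCs (log2 fold change -4.33 ± 1.08, adjusted p = 0.00208). Itgb7, which pairs with alpha 4 or alpha E in lymphocytes, had 18.8, 17.4 and 19.5 CPM in ESCs, 11.6, 13.1 and 13.3 CPM in EpiLCs, 17.2, 28.5 and 18.1 CPM in D2PGCLCs, 23.2, 38.9 and 23.5 CPM in D4PGCLCs, and 12.3, 23.1 and 17.0 CPM in D6PGCLCs. EpiLCs lay below ESCs, D2PGCLCs and D4PGCLCs, D4PGCLCs lay above ESCs and D6PGCLCs, and the other pairs of groups overlapped. Itgb7 was not called in any comparison (log2 fold change 0.75 ± 0.23, adjusted p = 0.0102 from EpiLCs to D2PGCLCs).

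Some chains known from leukocytes were members, whereas Itgax had no counts in any sample. Itgal, the alpha chain of LFA-1, had means of 17.8, 8.88, 4.04, 4.45 and 5.47 CPM. ESCs were highest, EpiLCs next, and the PGCLC samples lowest. Itgal was at the edge of the cutoff from ESCs to EpiLCs (log2 fold change -0.999 ± 0.16, adjusted p = 2.62e-05), fell from EpiLCs to D2PGCLCs (log2 fold change -1.14 ± 0.16, adjusted p = 9.55e-06) and was among the 3 lowest in D6PGCLCs against ESCs (log2 fold change -1.70 ± 0.16, adjusted p = 4.7e-08). From ESCs to EpiLCs the value moved past the cutoff with no filter, at -1.01, with the replicate block and in 9 of the 15 fits with 1 sample left out. Itgae, whose chain binds E-cadherin on T cells of epithelia, had 109, 71 and 119 counts (ESCs), 45, 63 and 64 (EpiLCs), 31, 21 and 21 (D2PGCLCs) and 28, 77 and 48 (D6PGCLCs). The 3 D2PGCLC samples were below all EpiLC samples, and Itgae was called lower (log2 fold change -1.39 ± 0.37, adjusted p = 0.00354). Itgb2, the beta chain of leukocyte integrins, had 0, 4 and 3 counts (ESCs), 12, 23 and 17 (EpiLCs), 0, 4 and 5 (D2PGCLCs) and 31, 33 and 8 (D6PGCLCs). Its 3 calls, higher in EpiLCs and D6PGCLCs than in ESCs and lower in D2PGCLCs than in EpiLCs, were each lost in 2 of the 15 fits with 1 sample left out, and Itgb2 missed the count rule without its EpiLC samples. Itgam, a chain of macrophages, was not called, and 68.7% of its exon bases overlap another annotated gene on the same strand, Gm49368.

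The remaining integrins had few reads. Itgb8, which with alpha v frees latent TGF-beta, had 0, 0 and 0 counts (ESCs), 51, 23 and 30 (EpiLCs), 4, 7 and 7 (D2PGCLCs), 1, 2 and 1 (D4PGCLCs) and 0, 0 and 1 (D6PGCLCs). EpiLCs, without whose samples Itgb8 missed the count rule, were above all other samples, at least 11.2-fold above ESCs, and D6PGCLCs were called lower than EpiLCs (adjusted p = 1.57e-05). The collagen-binding chain Itga1 had means of 0.507, 2.92, 2.99, 4.99 and 5.12 CPM and rose from ESCs to EpiLCs (log2 fold change 2.55 ± 0.34, adjusted p = 4.27e-06). Itga11, a receptor chain for fibrillar collagen, had 0, 0 and 0 counts (ESCs), 0, 12 and 1 (EpiLCs) and 19, 10 and 16 (D6PGCLCs). D6PGCLCs, without whose samples Itga11 missed the count rule, were at least 3.43-fold above ESCs, whereas its call from ESCs to EpiLCs was lost without EpiLC replicate 2 (adjusted p = 0.400) in 7 other fits with 1 sample left out and with the replicate block (adjusted p = 0.0715). Itga10, a collagen receptor chain of cartilage, had 32, 39 and 50 counts (EpiLCs) and 16, 17 and 23 (D2PGCLCs), and its call at this step was lost in 10 of the 15 fits with 1 sample left out. Its call in D6PGCLCs against ESCs was lost without ESC replicate 2, without D6PGCLC replicate 1 and with only the 2 groups compared in the fit. In Itga10, 33.5% of the exon bases overlap Gm42957 on the same strand. Itga2b, the platelet chain, had 28, 24 and 22 counts (EpiLCs) and 32, 121 and 94 (D6PGCLCs), groups that overlapped, and its call (log2 fold change 1.21 ± 0.40, adjusted p = 0.0151) was lost in 3 of the 15 fits with 1 sample left out and with only the 2 groups compared in the fit.

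Adaptors join integrins to actin, and of 17 such genes 4 were called higher (14.4% of all genes tested) and 3 lower (11.9%) from ESCs to EpiLCs. From EpiLCs to D2PGCLCs 4 were called higher (11%) and 0 lower (14.4%). Vcl, the vinculin gene, had means of 105, 84.6, 187, 161 and 123 CPM and rose from EpiLCs to D2PGCLCs (log2 fold change 1.14 ± 0.10, adjusted p = 3.02e-08). Bcar1, a docking protein of focal adhesions, had means of 30.8, 111, 90.3, 81.5 and 56.0 CPM and rose from ESCs to EpiLCs (log2 fold change 1.85 ± 0.09, adjusted p = 2.46e-12). Zyx, the zyxin gene, had means of 9.29, 19.2, 22.2, 28.1 and 27.6 CPM and was higher in D6PGCLCs than in ESCs (log2 fold change 1.57 ± 0.15, adjusted p = 9.26e-08). Parvb, the beta-parvin gene, had means of 27.2, 6.60, 5.12, 8.78 and 17.3 CPM and fell from ESCs to EpiLCs (log2 fold change -2.04 ± 0.21, adjusted p = 1.69e-07).

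Of 12 genes tested for ligands of integrins, 2 were called higher (14.4% of all genes tested) and 3 lower (11.9%) from ESCs to EpiLCs. From EpiLCs to D2PGCLCs 2 were called higher (11%) and 3 lower (14.4%). Fn1, the fibronectin gene, had means of 1363, 690.4, 941, 900.2 and 1088 CPM and was not called in any comparison. Spp1, the osteopontin gene, had means of 340.2, 66.9, 135, 134 and 104 CPM and fell from ESCs to EpiLCs (log2 fold change -2.35 ± 0.16, adjusted p = 7.45e-10). Nid1, a basement membrane linker, had means of 241, 24.1, 40.7, 85.1 and 157 CPM and fell at the same step (log2 fold change -3.32 ± 0.11, adjusted p = 2.55e-14). Lamb1, a laminin beta chain, had means of 28.2, 148, 80.5, 63.4 and 84.5 CPM and rose at that step (log2 fold change 2.39 ± 0.12, adjusted p = 8.15e-12). Lama5, a laminin alpha chain, had means of 172, 253, 55.0, 57.2 and 91.4 CPM and fell from EpiLCs to D2PGCLCs (log2 fold change -2.20 ± 0.15, adjusted p = 4.42e-10). Lama1 had means of 26.9, 7.75, 4.00, 4.53 and 8.06 CPM (log2 fold change -1.80 ± 0.21, adjusted p = 9.89e-07 from ESCs to EpiLCs). Col4a1, a collagen of basement membranes, had means of 16.8, 15.2, 6.45, 12.0 and 29.5 CPM (log2 fold change -1.24 ± 0.17, adjusted p = 4.89e-06 from EpiLCs to D2PGCLCs). Whether laminin or fibronectin added to the dishes bears on these levels was not tested.

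Per length of exons, Cdh1, Itgb1 and Cldn4 were the 3 highest members in every group, with Cldn4 first in D2PGCLCs and D4PGCLCs and Cdh1 first in the other 3. With the length of the longest transcript in place of the union of exons, Itga6 took the place of Cldn4 among the 3 highest in EpiLCs. How reads shared by near-identical genes or by overlapping exons were counted is not given in the sources used here. Exon bases shared with another annotated gene were found for 11 members, the most for Itgam and Itga10.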

How the data were processed

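RNA was sequenced from 15 samples, 3 in each of 5 groups (ESCs, EpiLCs, D2PGCLCs, D4PGCLCs and D6PGCLCs), after TRIzol extraction and a stranded library kit. The values are counts per gene deposited by the authors. The submitters' processing notes name Trim Galore, FastQC and STAR with the genome mm10. The counting tool, the annotation release, the use of strand and the treatment of multi-mapping reads are not given in the sources used here. Totals ran from 22555021 to 42725681 counts per sample, with group medians of 27453967 (ESCs), 29112257 (EpiLCs), 33433779 (D2PGCLCs), 33311717 (D4PGCLCs) and 34476646 (D6PGCLCs). Chi-square per gene between replicates was 8.82 to 44.6, above counting error alone, and the floors given for groups at 0 (3 counts per library) cover counting error only.

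Gene identifiers were mapped to GENCODE M21. Members, and the lists of partner genes and markers, were chosen with earlier results of these data known, so no set test was made. All 15 samples were fitted together in R 4.3.3 with edgeR 4.0.16 (TMM, filterByExpr with a minimum of 10 counts, quasi-likelihood test, Benjamini-Hochberg over the 18090 genes tested), with 6 comparisons and no covariate. Calls needed adjusted p under 0.05 with a change of more than 1 in log2 either way. RPKM used the union of the exons. DESeq2 1.42.0, the test named in the paper's methods, was an alternative, as were DESeq2 size factors, no filter, no fold-change cutoff, a replicate block, only the groups compared, each sample left out and the longest transcript as length. Their use on partner genes and on the share of Cdh3 was chosen after seeing the data. The scripts were tested on simulated data.

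Values in every sample are given as CPM for members with a highest group mean of at least 20 CPM and for a list of members fixed in advance, where Cdh5 with its few reads is given as counts. The 3 highest and 3 lowest calls of each comparison are named. Partner genes are named if called with a highest group mean of at least 20 CPM, at most 6 per list. Promoter windows are the 250 bases upstream of transcript starts of RefSeq on GRCm38.p6, with matches to letters counted on both strands as a description. Other datasets of the study are not analysed here.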

Additional observations from a re-analysis of the deposited data

How the results depend on the processing

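Of 192 log2 fold changes of named genes, 164 of them called, none changed sign under any alternative. DESeq2 kept 162 of the calls and lost 1, edgeR with DESeq2 size factors kept 163, no filter and the replicate block kept 160 each, and only the groups compared in the fit kept 147 and lost 2. A value missing under an alternative, where the gene did not pass its filter or had no adjusted p, is not counted. Over all fits with 1 sample left out, 2368 calls were kept and 92 lost, most often those of Cldn2 (D6PGCLC vs D4PGCLC), Itga10, Cdh5 and Cldn11 (D2PGCLC vs EpiLC) and Itga11 (EpiLC vs ESC), all at low counts. In the same fits, values not called became called 22 times. The share of Cdh3 moved by less than 1 SD in every group with the longest transcript as length, and 9 (ESCs) or 10 (the other groups) of the 10 highest members per length stayed the same.

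Counts of calls moved most without a fold-change cutoff. No share of all genes tested is given without the cutoff, so those counts cannot be set against one. For members they became 8 lower in EpiLC vs ESC, 13 higher in D2PGCLC vs EpiLC, 3 higher in D4PGCLC vs D2PGCLC, 9 higher and 4 lower in D6PGCLC vs D4PGCLC, and 13 higher and 11 lower in D6PGCLC vs EpiLC. For partner genes they became 32 higher and 22 lower in EpiLC vs ESC, 34 and 20 in D2PGCLC vs EpiLC, 7 and 7 in D4PGCLC vs D2PGCLC, 10 and 11 in D6PGCLC vs D4PGCLC, 36 and 17 in D6PGCLC vs ESC, and 30 and 22 in D6PGCLC vs EpiLC. The 2 members called higher in D6PGCLC vs D4PGCLC were 1 with no filter, 1 with the replicate block and 0 with only the groups compared, where neither had a value. Partner genes called higher in D4PGCLC vs D2PGCLC were 1 with no filter and 1 with only the groups compared, and those lower in D6PGCLC vs D4PGCLC were 2 with DESeq2 and 2 with no filter. Counted over the members that meet the count rule in the other groups, an alternative chosen after seeing the data, those called lower were 10 in D2PGCLC vs EpiLC and 2 in D6PGCLC vs EpiLC, and those called higher in EpiLC vs ESC were 15. Other counts stayed within 1.5 times.

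With 1 sample left out, members called higher and lower ranged from 17 to 22 and 3 to 5 in EpiLC vs ESC, 5 to 8 and 13 to 16 in D2PGCLC vs EpiLC, 1 to 1 and 0 to 0 in D4PGCLC vs D2PGCLC, 0 to 2 and 0 to 2 in D6PGCLC vs D4PGCLC, 19 to 23 and 6 to 7 in D6PGCLC vs ESC, and 7 to 10 and 4 to 7 in D6PGCLC vs EpiLC. For partner genes the ranges that moved by over 1.5 times were 1 to 4 higher and 1 to 2 lower in D4PGCLC vs D2PGCLC and 2 to 4 higher and 1 to 2 lower in D6PGCLC vs D4PGCLC. Without D6PGCLC replicate 1, members called were 0 and 0 in D6PGCLC vs D4PGCLC, 22 and 6 in D6PGCLC vs ESC, and 8 and 7 in D6PGCLC vs EpiLC. Apart from the cutoff, the cause of these moves was not tested. Samples of different groups share only a replicate number: 30 pairs with the same number had a mean correlation of residuals of 0.0358 and 60 other pairs -0.0179, and 8 of 15 samples correlated best with their own number. Of the 30 pairs, 6 had a correlation over 0.1, the highest at 0.208. Depth limits what can be read from members near 10 counts, and its effect on their calls was not tested.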

Other observations

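Of 6 desmosome genes, which serve another cadherin-based junction, 3 were called higher (14.4% of all genes tested) and 1 lower (11.9%) from ESCs to EpiLCs. From EpiLCs to D2PGCLCs 3 were called higher (11%) and 1 lower (14.4%). Means are listed from ESCs and EpiLCs to PGCLC days 2, 4 and 6. Dsp, the desmoplakin gene, had means of 32.7, 50.4, 259.7, 176 and 169 CPM and rose from EpiLCs to D2PGCLCs (log2 fold change 2.36 ± 0.13, adjusted p = 2.65e-11 by edgeR's quasi-likelihood test). Dsg2, a desmosomal cadherin gene, had means of 66.1, 28.5, 108, 96.3 and 110.5 CPM and rose at the same step (log2 fold change 1.92 ± 0.14, adjusted p = 1.99e-09). Perp, a desmosome protein gene, had means of 1.17, 4.51, 15.9, 21.5 and 19.1 CPM (log2 fold change 1.82 ± 0.22, adjusted p = 1.28e-06). Pkp2, the plakophilin 2 gene, had means of 59.4, 119, 50.1, 49.98 and 35.3 CPM and fell at that step (log2 fold change -1.25 ± 0.14, adjusted p = 5.98e-07). Nectin2, which encodes an adhesion molecule that joins cadherin junctions, had means of 91.5, 123, 232, 249.99 and 229.9 CPM and was higher in D6PGCLCs than in ESCs (log2 fold change 1.33 ± 0.08, adjusted p = 1.17e-10). Nectin1 had means of 38.8, 21.8, 6.92, 10.6 and 12.4 CPM and fell from EpiLCs to D2PGCLCs (log2 fold change -1.66 ± 0.21, adjusted p = 2.6e-06).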
